A study of Arabidopsis thaliana with 8 samples.

Results

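The genes described here are the 197 genes of Arabidopsis thaliana that stood highest in plants mutant in all of PAT1, PATH1 and PATH2. They were chosen from 37336 genes (0.528%) by a rule on the measured levels. A level is a count per 1000000 counts of its library (CPM), and y is log2(CPM + 0.5) averaged over the 3 libraries of a genotype. A member has a y in the triple mutant at least 0.7 above the highest of the other 7 genotypes, and a mean of at least 1 CPM there. Any difference between the triple mutant and another genotype in these genes is therefore a description of what the rule selected, and carries no test. The 8 genotypes all carry summ2-8, a mutation of SUMM2, which encodes an immune receptor. They are summ2-8 alone (the control), pat1-1summ2-8, path1-4summ2-8, path2-1summ2-8, pat1-1path1-4summ2-8, pat1-1path2-1summ2-8, path1-4path2-1summ2-8 and pat1-1path1-4path2-1summ2-8 (the triple mutant). The other genotypes are called below by their pat mutations. Above-ground tissue was taken from plants grown for 6 weeks at 21 °C with 8 hours of light and 16 hours of dark, and each genotype gave 3 replicate libraries, 24 in all. Pots were of 1 of 2 sizes that the labels do not tie to genotypes, and neither the hour of harvest nor whether a library is 1 plant or a pool is given in the sources used here. The sample titles call the 3 libraries of a genotype biotriplicates. The p-values below measure the spread between these libraries, which may in part be technical.

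PAT1 proteins bridge the shortened poly(A) tail of a messenger RNA, where the LSM ring binds, and the decapping enzyme that removes the cap. Decapping exposes the transcript to degradation from its 5′ end, so these proteins act in mRNA turnover in the cytoplasm. Arabidopsis has the paralogs PAT1, PATH1 and PATH2, and loss of PAT1 is known to trigger SUMM2-dependent immune signalling, which is why the mutants are studied in a summ2 background. The study set out to find genes behind the developmental programs that these proteins regulate.

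Library totals ran from 14187145 to 39180748 counts and those of the triple mutant from 26889756 to 28612754. The mutated loci were still counted: the mean level of PAT1 was 47.3 CPM in the control and 37.7 in the triple mutant, that of PATH1 62.3 and 54.9, and that of PATH2 85.3 and 102.9. Counts per gene do not show which part of these transcripts remained. Triple replicate 1 was somewhat more often at an end of the 3 triple values than the other 2 libraries of its genotype. It held the highest value in 77 members and the lowest in 84, replicate 2 in 72 and 63 and replicate 3 in 48 and 50. Without replicate 1 the rule found 237 genes, 167 of them among the 197. Without replicate 2 it found 208, with 180 of the 197, and without replicate 3 209, with 183. Summed CPM of 16 root marker genes was 113 to 151 in the triple libraries, 41.4 to 74.5 in the control and 37.7 to 116 over all 21 other libraries. Of these genes 5 could be tested in the triple mutant against the control, and 3 were called higher and 0 lower, with a median log2 fold change of 0.88. Over all genes tested 22.8% were called higher and 22.6% lower. PYK10, a member that the rule selected for its triple level, is in this sum and among the 3. RHD6, EXPA7, SHV2, PLT1 and MRN1 were at 0 in the triple libraries, but 3 of the 16 were at 0 in every library. Leaf mesophyll markers summed to 56251 to 61292 CPM in the triple libraries against 37495 to 47066 in the control, and senescent leaf markers to 1039 to 1103 against 729 to 928. Guard cell markers were lower, at 73.2 to 92.3 against 105 to 113, as were phloem markers, at 223 to 311 against 321 to 361. These 4 sums did not overlap the control, but each overlapped the range of the 21 other libraries. Xylem markers (60.8 to 95.3 against 68.3 to 81.7), meristem and boundary markers (3.53 to 16.8 against 6.85 to 11.5) and seed markers (0.710 to 0.818 against 0.596 to 1.03) overlapped the control. Flower markers summed to 1.08 to 1.49 against 1.78 to 1.91, and anther and pollen markers to at most 0.177 against at most 0.303. The part of other cell types in the results was not tested. In whole tissue, more cells of a type and more RNA per cell cannot be told apart.

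The number of genes set apart in this way was largest in the triple mutant. Applied to each other genotype in turn, the same rule found 25 genes for pat1-1 and 1 for the control, 3 for path1-4 and 6 for path2-1. Among the doubles it found 15 for path1-4path2-1, 13 for pat1-1path2-1 and 3 for pat1-1path1-4. The mirrored rule, at least 0.7 below the lowest of the other 7 genotypes, found 157 genes in the triple mutant and at most 15 in any other genotype. These counts are descriptions without a test.

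**Figure D1:**
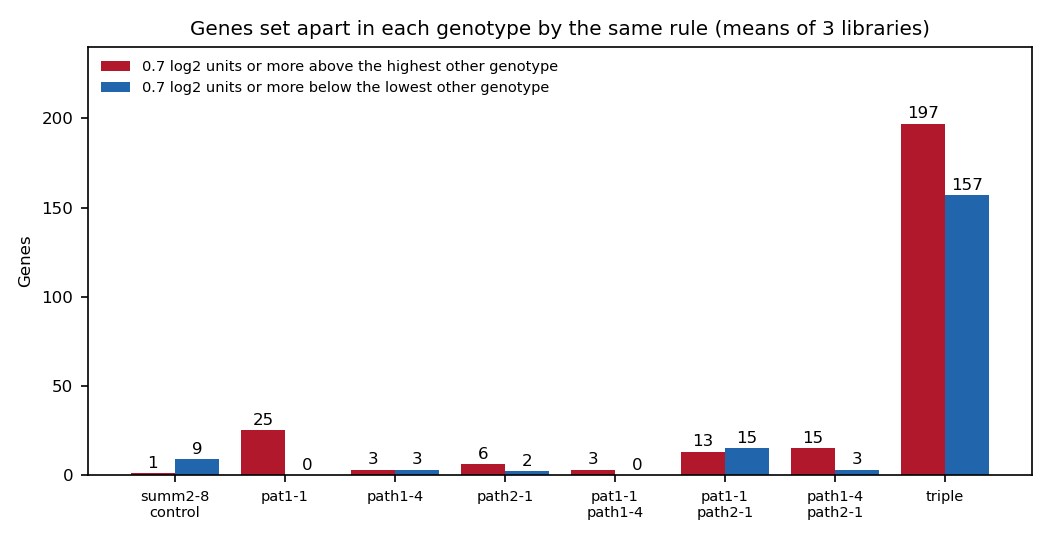
Number of genes (y axis) that the rule set apart in each of the 8 genotypes (x axis), above all other genotypes (red) or below all of them (blue). The triple mutant has 197 and 157 genes, and no other genotype has more than 25.

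The excess of the triple mutant over the next genotype ran from 0.70 to 2.59 on the log2 scale of y, with a median of 0.89. It was at least 1 in 75 members and at least 2 in 4. As a ratio of mean CPM the triple mutant was 1.63 to 19.9 times the next genotype, with a median of 2.10. Members were mostly modest in level: the triple mean ran from 1.01 to 1178 CPM with a median of 7.89, and was below 5 CPM in 80 members and at least 100 in 10. In the control the median member stood at 1.55 CPM. In 177 members all 3 triple libraries lay above all 21 others. Of all 17819 genes with a triple mean of at least 1 CPM, 7.76% did so, and since the rule selects for this nothing is read from the difference. In the other 20 members at least 1 triple library fell among the others, as for AIG1, PA2 and VSP2. RefSeq annotates 184 members as protein-coding, 5 as long non-coding RNA, 3 as other non-coding RNA and 5 as pseudogenes, of which 2 are transcribed.

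Not all members were raised in the triple mutant alone. In the tests given below, 101 of 196 members were called higher than the control in at least 1 other genotype, and 95 in none. These 196 include 12 that passed the filter on low counts only through the triple libraries. The share of all genes called higher at least once was not computed, so the count serves only to name the set. The next genotype below the triple mutant was pat1-1path1-4 for 81 members, pat1-1 for 49 and pat1-1path2-1 for 33, so 163 of 197 had a carrier of pat1-1 in that place. It was the control for 14, path1-4path2-1 for 10, path2-1 for 7 and path1-4 for 3. Some genotype always holds that place, so this ranking is a description and does not show a rise above the control. Because of the calls in other genotypes, the genes are called here those highest in the triple mutant, not those raised only there. In 193 of 197 members the triple mutant lay above the sum of the 3 single-mutant effects on the scale of y, by a median of 1.31, which the rule again favours.

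**Figure D2:**
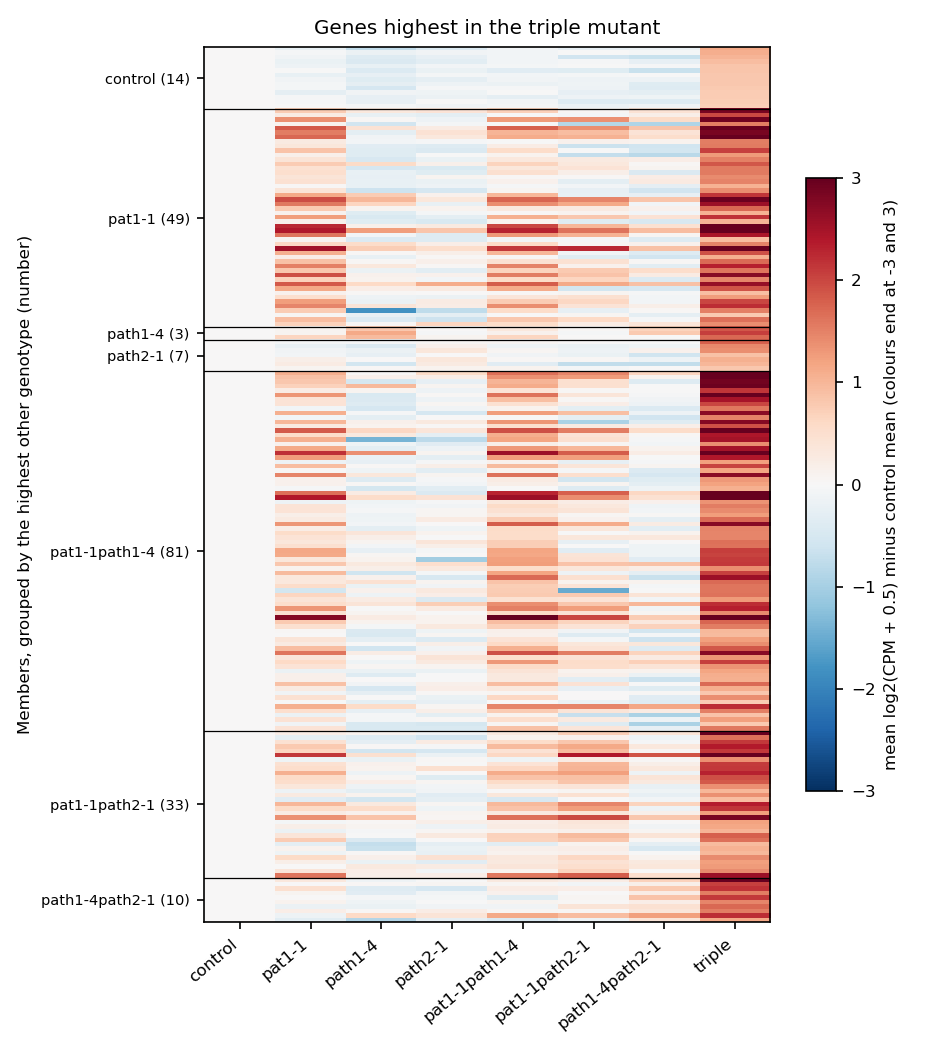
Mean log2(CPM + 0.5) of each of the 197 members (rows) in 8 genotypes (columns), minus its control mean, grouped by the genotype next below the triple mutant. The triple column is red throughout, and the columns of pat1-1 and pat1-1path1-4 are red for many of the same rows.

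The largest excess was that of AT3G29633, annotated as an unknown protein (TAIR10.1 chromosome 3, 11452509 to 11453528). Its 3 triple libraries held 2.57, 8.73 and 9.37 CPM, with replicate 1 well below the other 2. Its next genotype, pat1-1path2-1, held 0.541, 0.672 and 0.546, the control 0.511, 0 and 0.0378, and the 21 other libraries ranged from 0 to 0.672. No triple library overlapped them, and the excess was 2.59. AT2G28570, an unknown protein on chromosome 2, 12241766 to 12242778, stood at 20.0, 29.6 and 28.5 CPM in the triple libraries against 1.06, 1.37 and 1.06 in the control. Between them stood pat1-1path1-4 with 5.65, 4.16 and 4.45, pat1-1path2-1 with 4.41, 4.42 and 3.38 and pat1-1 with 3.29, 2.64 and 3.10. AT3G16660, of the pollen Ole e 1 allergen and extensin family of cell wall proteins, held 46.6, 42.0 and 50.5 CPM in the triple libraries and 3.26 to 15.8 in the others, an excess of 1.89. AT3G57950, another unknown protein, had an excess of 2.10 and a mean of 6.31 ± 1.01 CPM (SD, n = 3) against 1.11 ± 0.438 in pat1-1 below it.

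Some members were close to absent outside the triple mutant. MLP34, a protein of the major latex protein family, held 2.16, 2.56 and 0.769 CPM in the triple libraries and at most 0.173 in any other. The cupin gene AT5G39120 held 1.79, 1.31 and 1.05 CPM and at most 0.144 elsewhere. For AT1G13609, a small defensin-like peptide, triple replicates 2 and 3 held 3.83 and 3.84 CPM but replicate 1 only 0.335, which lay among the others (0 to 0.376). These are low levels, a few counts per library outside the triple mutant, so the size of their excess depends on the offset of 0.5.

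Class III peroxidases are secreted heme enzymes that use hydrogen peroxide to cross-link or loosen cell walls. They gave 6 members: AT2G38390, AT2G18150, AT2G38380, PA2, AT4G33420 and AT4G36430. AT2G38390 held 5.24, 4.05 and 4.26 CPM in the triple libraries. Its next genotype, path1-4path2-1, held 0.153, 0.604 and 0.580, and the control 0, 0.191 and 0.0378. Its neighbour AT2G38380 stood at 4.61, 4.26 and 3.70 in the triple libraries. It held 0.340, 0.877 and 0.454 in the control, and in path1-4path2-1, next below the triple mutant, 0.434, 2.72 and 1.36. In both genes every triple library exceeded all 21 others. AT2G18150 was lower in level, with 2.05, 2.31 and 1.89 CPM in the triple libraries and at most 0.513 elsewhere. AT4G33420 held 16.9, 12.0 and 10.4 CPM against 5.17, 5.46 and 6.00 in pat1-1path1-4 and 1.91, 1.72 and 2.496 in the control, so it was intermediate in that double mutant. PA2 was uneven: replicate 1 held 31.0 CPM and replicates 2 and 3 6.10 and 6.89, the lowest of which fell below the highest library of pat1-1 (6.24). AT4G36430 had the smallest excess of the 6, 1.04, with 2.27, 2.95 and 2.34 CPM. The annotation holds 43 genes of this class with at least 1 CPM in the triple mutant, so 14.0% of them are members, against 1.11% of all genes at that level. Of the 55 peroxidase genes tested in the triple mutant against the control, 25 were called higher and 8 lower, with a median log2 fold change of 0.48. Over all 20346 genes tested that comparison called 22.8% higher and 22.6% lower, with a median of 0.00016. That contrast is the one the rule used, so these counts describe the class and support nothing about its members.

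The peroxidase pair lies in tandem on chromosome 2, AT2G38380 at 16076289 to 16078781 and AT2G38390 at 16079679 to 16081671, both on the plus strand. Tandem copies are alike in sequence, and reads that fit both could have been split between them in the counting, so the separate levels of the pair are uncertain. The 250 bases before each annotated start are shown because both neighbours stood highest in the triple mutant, and the capitals mark a run of 25 bases that both contain. That run lies at -148 to -124 of AT2G38390 and at -68 to -44 of AT2G38380, and occurs in 2 of 37049 promoter windows of RefSeq TAIR10.1, those of this pair. A shared run describes the sequences and is not shown to act in these plants.
AT2G38390, chr2:16079429-16079678, plus strand: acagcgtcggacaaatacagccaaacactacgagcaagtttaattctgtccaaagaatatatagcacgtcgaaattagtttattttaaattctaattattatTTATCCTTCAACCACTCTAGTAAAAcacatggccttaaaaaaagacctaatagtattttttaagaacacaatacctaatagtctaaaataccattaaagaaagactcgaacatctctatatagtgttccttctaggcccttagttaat
AT2G38380, chr2:16076039-16076288, plus strand: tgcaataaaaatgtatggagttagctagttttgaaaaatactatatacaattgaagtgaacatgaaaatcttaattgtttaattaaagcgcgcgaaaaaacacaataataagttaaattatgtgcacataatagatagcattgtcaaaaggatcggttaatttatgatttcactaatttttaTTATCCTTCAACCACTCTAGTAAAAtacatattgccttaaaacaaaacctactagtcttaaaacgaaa

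**Figure D3:**
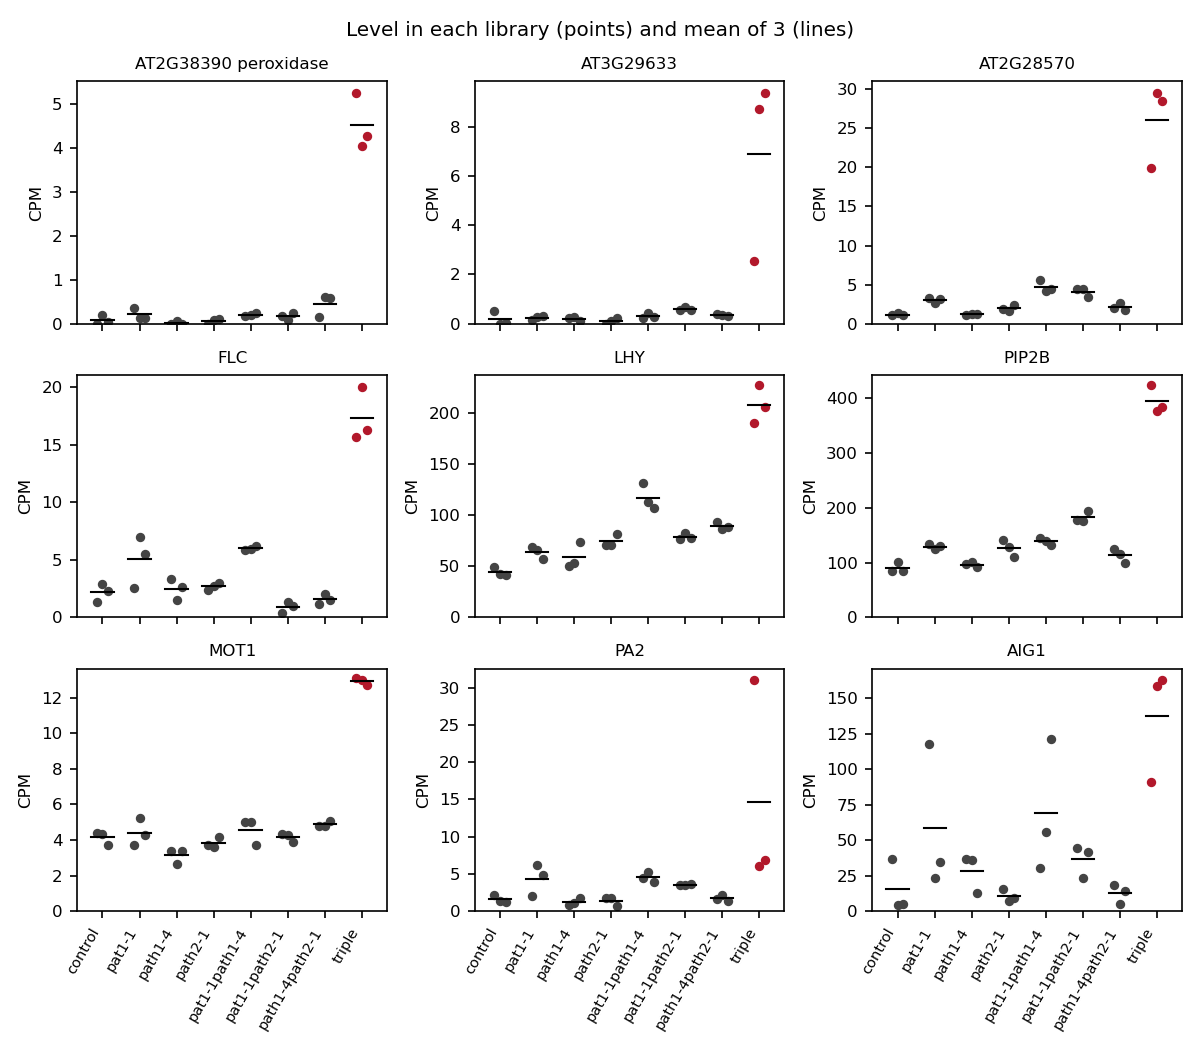
Level in CPM (y axes, from 0) of 9 members in each of the 24 libraries (points; triple mutant in red) with the mean of each genotype (lines). PA2 and AIG1 are members in which triple libraries overlap other genotypes, and MOT1 shows 3 triple libraries at 12.7 to 13.1 CPM.

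Other cell wall and secreted proteins were among the members. The 4 genes annotated as pectin lyase-like, a fold of pectin-cleaving enzymes, were AT3G61490, AT4G23500, AT1G70500 and AT1G56710. AT3G61490 held 13.2, 16.0 and 15.6 CPM in the triple libraries and 3.17 to 7.36 in the others, and its next genotype was the control. AT4G23500 held 39.8, 31.4 and 35.5 CPM against 16.6, 22.6 and 16.5 in the control. Of 97 pectin enzyme genes tested in the triple mutant, 14 were called higher and 30 lower, where 22.8% of all genes were called higher and 22.6% lower. GRP9, AT4G15150 and AT5G46730 encode glycine-rich proteins, of which many are structural wall proteins. GRP9 went from 1.36, 1.91 and 0.756 CPM in the control to 49.9, 49.1 and 43.5 in the triple mutant, with pat1-1 (22.8, 7.06 and 9.45) and pat1-1path1-4 (24.3, 32.9 and 23.7) between. AT5G46730 held 20.6, 25.3 and 24.7 CPM in the triple libraries and 2.98 to 11.3 in the others. The lipid transfer protein genes LTP6, AT3G18280 and AT3G58550, whose class binds lipids outside the cell, had an excess of 1.09, 1.09 and 1.06. Of 57 lipid transfer protein genes tested in the triple mutant, 12 were called higher and 15 lower, against 22.8% and 22.6% of all genes. LTP6 itself held 12.7, 19.0 and 16.8 CPM against 3.62, 8.35 and 4.39 in the control. GLP9, a germin-like protein of the apoplast, held 19.2, 12.0 and 9.68 CPM against 0.343 to 6.01 elsewhere. ATSBT5.2, a secreted subtilisin-like protease, held 74.3, 42.2 and 41.3 CPM, with replicate 1 highest, and its other 21 libraries lay within 16.3 to 24.4.

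Lectins, defence and calcium-binding proteins made up further members. Jacalin-type lectins bind sugars, and 3 of the 15 with at least 1 CPM in the triple mutant are members. AT1G52100 held 4.13, 4.44 and 4.16 CPM in the triple libraries, 1.05, 0.955 and 1.31 in pat1-1path1-4 and 0.340, 0.343 and 0.378 in the control. AT1G33790 held 4.83, 11.0 and 9.30, with replicate 1 lowest, and JAL33 11.2, 15.1 and 12.9. Of the 18 lectins tested, 4 were called higher and 5 lower in the triple mutant, against 22.8% and 22.6% of all genes. AIG1, a GTPase gene induced by avirulent bacteria, was the only member from a list of 19 genes of salicylic acid immunity. Of these 19, AIG1 included, 10 were called higher and 0 lower in the triple mutant, against 22.8% and 22.6% of all genes. Their median log2 fold change was 0.83. The triple libraries of AIG1 held 91.3, 159 and 163 CPM, but its control held 36.8, 4.16 and 5.41 and pat1-1 118, 23.5 and 34.4. The lowest triple library therefore lay below a pat1-1 library. CML41, a calmodulin-like protein, held 64.0, 45.8 and 39.9 CPM in the triple libraries and 14.8, 41.2 and 31.8 in pat1-1, again with overlap. The defensin-like gene AT3G05730 did not overlap: 80.7, 61.6 and 67.5 CPM in the triple libraries against 9.37 to 36.2 in all others. Of 171 genes tested that match the search words for defensins and thionins, 28 were called higher and 47 lower in the triple mutant, against 22.8% and 22.6% of all genes. AT1G15330 and AT2G35170 match the search words for thionins and histones, but their annotations name a cystathionine beta-synthase protein and a SET7/9 family protein. MT1C, a metal-binding metallothionein, held 18.3, 12.1 and 12.2 CPM against 5.65, 3.33 and 4.65 in pat1-1 and 0.979, 2.21 and 1.25 in the control.

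FLC, the MADS-box repressor of flowering, was a member with an excess of 1.44. The triple libraries held 15.7, 20.1 and 16.3 CPM. The control held 1.36, 2.90 and 2.31, pat1-1 2.57, 7.03 and 5.55, path1-4 3.35, 1.55 and 2.61 and path2-1 2.37, 2.71 and 3.03. Among the doubles pat1-1path1-4 held 5.87, 5.96 and 6.24, pat1-1path2-1 0.390, 1.34 and 0.993 and path1-4path2-1 1.15, 2.03 and 1.51. FLC was therefore lowest in pat1-1path2-1 and highest in the triple mutant, which differs from it by path1-4. Against the control it was lower in pat1-1path2-1, with a log2 fold change of -1.32 ± 0.41 (SE, edgeR adjusted p = 0.0182). The path1-4 effect in that background is the contrast the rule used and was not tested. FLC and the long non-coding RNA gene AT5G01675, also a member, overlap on opposite strands of chromosome 5 (FLC at 3173382 to 3179448 on the minus strand, AT5G01675 at 3173371 to 3179600 on the plus strand). The strand setting of the counting is not given in the sources used here, so reads of the pair cannot be told apart. AT5G01675 held 1.00, 1.38 and 1.33 CPM in the triple libraries and 0.0300 to 0.481 in the others. Of 6 genes of the FLC clade tested, which are related flowering repressors, 3 were called higher in the triple mutant and 0 lower, against 22.8% and 22.6% of all genes, and FLC is the only member.

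LHY and RVE1 are related morning-phased MYB-like factors, LHY in the circadian clock and RVE1 in clock control of growth. The control held 49.1, 42.1 and 41.9 CPM of LHY. The single mutants held 68.3, 65.8 and 57.4 (pat1-1), 49.997, 53.6 and 73.6 (path1-4) and 71.2, 70.4 and 81.4 (path2-1). The doubles held 131, 113 and 107 (pat1-1path1-4), 76.2, 82.1 and 77.4 (pat1-1path2-1) and 92.8, 86.2 and 88.2 (path1-4path2-1), and the triple libraries 189.7, 227 and 205. Control libraries were lowest and triple libraries highest, while singles overlapped each other and path2-1 overlapped pat1-1path2-1. The mean level was 44.4 CPM in the control and 207 in the triple mutant. Of the 6 genotypes between, LHY was called higher than the control in all except path1-4. RVE1 held 11.7, 12.5 and 13.1 CPM in the control, 33.9, 29.9 and 30.003 in pat1-1path1-4 and 50.6, 57.4 and 55.4 in the triple mutant. Both genes are strongly rhythmic over the day, and the part of the hour of harvest was not tested.

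The 250 bases before the starts of FLC, LHY and RVE1 are shown because these 3 regulators carry a G-box (CACGTG), the palindrome that bZIP and bHLH factors bind. Capitals mark motif matches on either strand: the G-box in all 3 (at -146, -80 and -111 from the start), the evening element AAATATCT in FLC, and in LHY a heat shock element (GAANNTTC) and a TATA box (TATAAA). They were picked for display after their levels were known. Over all 197 members the G-box occurred in 7.61% of promoters, against 8.88% of genes with at least 1 CPM in the triple mutant, so it does not mark the members as a whole.
FLC, chr5:3179449-3179698, minus strand: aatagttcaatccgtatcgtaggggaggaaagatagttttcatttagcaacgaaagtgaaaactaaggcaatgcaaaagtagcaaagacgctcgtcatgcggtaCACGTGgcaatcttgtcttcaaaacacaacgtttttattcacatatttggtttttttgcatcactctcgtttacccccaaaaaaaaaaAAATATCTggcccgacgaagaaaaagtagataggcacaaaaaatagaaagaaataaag
LHY, chr1:37872-38121, minus strand: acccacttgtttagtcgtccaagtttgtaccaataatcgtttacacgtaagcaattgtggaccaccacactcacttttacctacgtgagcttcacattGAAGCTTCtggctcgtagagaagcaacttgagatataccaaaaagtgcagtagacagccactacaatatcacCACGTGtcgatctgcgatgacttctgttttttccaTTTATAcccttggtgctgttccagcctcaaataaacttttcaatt
RVE1, chr5:5692993-5693242, minus strand: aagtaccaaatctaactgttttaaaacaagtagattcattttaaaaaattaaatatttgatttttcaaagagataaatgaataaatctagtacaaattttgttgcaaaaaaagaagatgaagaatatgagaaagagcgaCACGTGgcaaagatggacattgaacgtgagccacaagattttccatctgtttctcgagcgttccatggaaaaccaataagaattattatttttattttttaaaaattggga

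Further regulators of development and growth were members at low to moderate levels. They were picked for mention after their values were seen, and are no tested group. HYH, the bZIP homolog of the light factor HY5, held 7.62, 11.3 and 10.6 CPM in the triple libraries and 1.91, 1.87 and 1.32 in the control. CGA1, a cytokinin-responsive GATA factor, averaged 26.7 ± 6.09 CPM (SD, n = 3) in the triple mutant and 8.31 ± 0.194 in the control. ASL9, a LOB-domain factor, held 7.62, 6.35 and 6.40 CPM against 3.08, 3.81 and 3.34 in pat1-1 and 1.02, 1.49 and 0.908 in the control. CUC3, a NAC factor of organ boundaries, was near the floor of the rule, with 0.446, 1.49 and 1.19 CPM in the triple libraries and at most 0.397 elsewhere. NGA3, a B3-domain factor of leaf and style shape, held 5.88, 8.66 and 8.81 CPM and 1.48 to 4.05 elsewhere. The AINTEGUMENTA-like factor AIL6 averaged 4.04 ± 0.110 CPM in the triple mutant and 1.87 ± 0.576 in the control. The growth-regulating factor GRF4 averaged 9.66 ± 0.814 and 5.58 ± 1.40, and was called in no other genotype against the control. Cell cycle genes included the G1 cyclin CYCD3;1, at 26.8 ± 2.51 CPM in the triple mutant and 13.9 ± 2.78 in the control. The mitotic kinase CDKB2;2 averaged 5.37 ± 0.730 and 1.41 ± 0.206, and was also called higher than the control in pat1-1, pat1-1path1-4 and pat1-1path2-1. BB (BIG BROTHER), a RING ubiquitin ligase that restricts organ size, averaged 12.2 ± 0.910 and 5.80 ± 0.778. For genes given only as triple and control means, the gap to the next genotype can be smaller than the gap shown. Members whose annotation text matches WRKY were WRKY49, WRKY29 and AT4G31805, with an excess of 1.13, 0.95 and 0.88. AT4G31805 was placed here by that match alone and has no WRKY symbol, so it may not be a WRKY factor. WRKY49 was highest in replicate 1, at 4.65 CPM against 1.49 and 1.54 in replicates 2 and 3, but all 3 lay above the 21 other libraries. Of the 57 genes with that match tested in the triple mutant, 22 were called higher and 10 lower, against 22.8% and 22.6% of all genes.

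Per transcript length the most abundant member was AT1G62480, annotated as related to vacuolar calcium-binding proteins, with a triple mean of 2183 TPM (transcripts per 1000000, a unit scaled by length). In counts it held 824, 1350.4 and 1361 CPM in the triple libraries, 521, 657 and 795 in pat1-1path1-4 and 220.2, 239 and 219 in the control. AT1G07590, of the tetratricopeptide repeat family, held 937, 886 and 868 CPM against 474, 542 and 494 in pat1-1 and 262, 317 and 250.3 in the control. PIP2B, a water channel of the plasma membrane, held 425, 377 and 385 CPM in the triple libraries, 179, 177 and 195 in pat1-1path2-1 and 84.8, 102 and 85.1 in the control. Its close relative RD28, the adjacent gene, held 71.0, 65.9 and 60.4 CPM in the triple libraries. Its pat1-1path2-1 libraries held 33.4, 36.7 and 37.5 and its control libraries 13.6, 23.4 and 19.6. In both genes pat1-1path2-1 lay between control and triple mutant without overlap, and reads that fit both could have been split between them. MOT1, a molybdate transporter, was among the members with the least spread, with 13.1, 13.0 and 12.7 CPM in the triple libraries and 2.68 to 5.21 in the other 21. AT1G33700, a beta-glucosidase of the GBA2 type, was the tightest of all, with 18.1, 18.1 and 17.9 CPM against 4.10 to 8.33. At the other end, AT2G44240 held 25.2, 6.57 and 5.87 CPM in the triple libraries and reached 9.88 in a pat1-1path2-1 library. The SD of y over the 3 triple libraries ran from 0.0083 to 1.37 over the members, with a median of 0.181. PYK10, the beta-glucosidase of ER bodies and a root marker, held 74.9, 101 and 99.96 CPM, 63.1, 39.5 and 41.7 in pat1-1 and 15.0, 25.5 and 38.0 in the control. No other of the 16 root markers met the rule. Of the 5 that could be tested in the triple mutant 3 were called higher, against 22.8% of all genes. The summed root markers were higher in the triple libraries than in the control. PYK10 is among those 3 and is the larger part of that sum in the triple libraries. Neither is therefore separate from its selection by the rule. The part of root tissue was not tested.

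How the members behave without the full triple mutation was tested on the other 7 genotypes, whose comparisons the rule did not use as its contrast, although it capped their levels at 0.7 below the triple mutant. Each gene was tested with the edgeR quasi-likelihood F test in 1 fit over 24 libraries and 20346 genes, and called at a Benjamini-Hochberg adjusted p below 0.05. Of the 197 members 196 were tested. For 12 of them the filter on low counts was passed only through the triple libraries. The 6 comparisons share the control libraries, so they are given side by side. In pat1-1, 69 members were higher and 0 lower, where over all genes 12% were called higher and 10.9% lower. In pat1-1path1-4, 87 were higher and 1 lower, against 15.8% and 15.4% of all genes. In pat1-1path2-1, 54 were higher and 11 lower, against 15.9% and 16.7%, and the 11 became 7 without control replicate 1 or 2 and 4 without pat1-1path2-1 replicate 1. In path1-4path2-1, 12 were higher and 19 lower, against 9.18% and 10.3%. That split was not stable: without control replicate 1 it was 21 higher and 15 lower, without path1-4path2-1 replicate 1 it was 12 and 12, and with only the compared genotypes 6 and 19. In path1-4, 2 members were called, 1 in each direction, where 0.177% of all genes were called. In path2-1, 1 was called, where 0.0197% of all genes were. With the filter computed without the triple libraries 184 members were tested. Those higher were then 84 in pat1-1path1-4, 68 in pat1-1, 53 in pat1-1path2-1, 9 in path1-4path2-1, 1 in path2-1 and 0 in path1-4, while the counts lower did not change. The carriers of pat1-1 had median log2 fold changes of the members of 0.58 (pat1-1), 0.73 (pat1-1path1-4) and 0.38 (pat1-1path2-1). Without pat1-1 the medians were -0.13 (path1-4), -0.07 (path2-1) and -0.08 (path1-4path2-1). Over all genes each lay between -0.01 and 0.01. The member medians include the 12 members that passed the filter only through the triple libraries, and were not computed without them. Over these 6 comparisons 101 members were called higher at least once, 26 lower at least once and 74 in none. The share of all genes called at least once was not computed, so these counts are not read as a result about the members. They include members that passed the filter only through the triple libraries, such as AT3G42100.

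**Figure D4:**
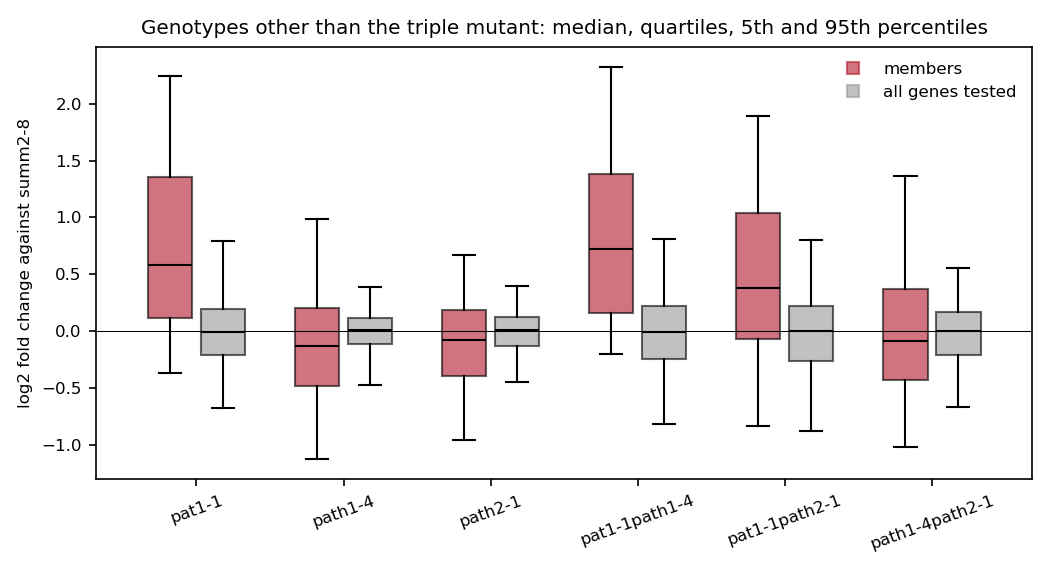
Log2 fold change against summ2-8 (y axis) in the 6 genotypes between control and triple mutant (x axis) for the 196 members tested (red) and all 20346 genes tested (grey). The member medians are 0.58, 0.73 and 0.38 in the carriers of pat1-1 and between -0.13 and -0.07 in the others. The members shown include 12 that passed the filter on low counts only through the triple libraries.

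Among members called in the single mutants, AT3G21080, annotated as related to ABC transporters, had the smallest adjusted p in pat1-1. It held 2.26, 1.18 and 1.17 CPM in the control and 9.39, 12.1 and 8.65 in pat1-1, with a log2 fold change of 2.74 ± 0.25 (SE, edgeR adjusted p = 1.04e-06). The adjacent unknown proteins AT1G65500 and AT1G65510 were also higher in pat1-1. AT1G65500 had a log2 fold change of 1.78 ± 0.19 (SE, edgeR adjusted p = 7.65e-06), and AT1G65510 had a log2 fold change of 2.79 ± 0.33 (SE, edgeR adjusted p = 2.27e-05). AT2G41250, a haloacid dehalogenase-like hydrolase, was higher in pat1-1 with a log2 fold change of 0.84 ± 0.10 (SE, edgeR adjusted p = 2.27e-05), and ASL9 with a log2 fold change of 1.59 ± 0.27 (SE, edgeR adjusted p = 4.70e-04). In path1-4 the transposable element gene AT3G42100 was the member called higher, with 0 counts in each control library and 7, 8 and 7 in the path1-4 libraries. It passed the filter on low counts only through the triple libraries, where the rule made it high, so nothing is read from this call. It was not tested when the filter or the fit left those libraries out, nor with only the compared genotypes. The serine carboxypeptidase-like gene scpl31 was called lower in path1-4, at 1.58, 1.13 and 1.09 CPM against 4.26, 9.31 and 4.50, with a log2 fold change of -2.21 ± 0.44 (SE, edgeR adjusted p = 0.0381). In path2-1 only LHY was called, with a log2 fold change of 0.68 ± 0.11 (SE, edgeR adjusted p = 0.0251). The scpl31 call ended without control replicate 2 or 3, without any 1 of the path1-4 libraries, and in fits of only the compared genotypes or without the triple libraries. The LHY call in path2-1 ended without control replicate 2 or 3, without any 1 of the path2-1 libraries and in the same 2 fits. Without control replicate 1 the counts of members called were 7 in path1-4 and 2 in path2-1, and without control replicate 2 or path1-4 replicate 2 the count in path1-4 was 1.

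In the doubles LHY led pat1-1path1-4 with a log2 fold change of 1.40 ± 0.11 (SE, edgeR adjusted p = 5.69e-08). AT2G41250 followed with a log2 fold change of 1.26 ± 0.10 (SE, edgeR adjusted p = 6.45e-08), then AT3G21080 with a log2 fold change of 2.91 ± 0.25 (SE, edgeR adjusted p = 1.12e-07) and HYH with a log2 fold change of 1.72 ± 0.17 (SE, edgeR adjusted p = 8.99e-07). PIP2B led pat1-1path2-1 with a log2 fold change of 1.04 ± 0.10 (SE, edgeR adjusted p = 2.93e-07), followed by HYH with a log2 fold change of 1.74 ± 0.17 (SE, edgeR adjusted p = 4.99e-07). By adjusted p LHY, AT2G41250 and HYH were the first 3 called higher in path1-4path2-1, where LHY had a log2 fold change of 0.96 ± 0.11 (SE, edgeR adjusted p = 4.38e-06). The kinase gene SNRK2-8 of the SnRK2 family, which acts in osmotic stress signalling, came next there with a log2 fold change of 0.66 ± 0.11 (SE, edgeR adjusted p = 3.07e-04). Some members that were highest in the triple mutant fell in a double. The cellulose synthase-like gene CSLB03 fell in pat1-1path2-1 from 10.2, 12.5 and 7.53 CPM to 5.92, 5.89 and 5.36, with a log2 fold change of -0.79 ± 0.19 (SE, edgeR adjusted p = 0.00355), and stood at 21.8, 18.7 and 20.6 in the triple mutant. The lectin gene AT1G33790 fell there with a log2 fold change of -1.10 ± 0.28 (SE, edgeR adjusted p = 0.00464). In path1-4path2-1 the malonyltransferase gene PMAT2 fell from 56.0, 45.3 and 46.9 CPM to 34.5, 31.4 and 33.8, with a log2 fold change of -0.61 ± 0.09 (SE, edgeR adjusted p = 1.04e-04), against 97.7, 90.1 and 102 in the triple mutant. AT4G15960, an alpha/beta-hydrolase, had a log2 fold change of -1.31 ± 0.23 (SE, edgeR adjusted p = 5.18e-04), and the Dof zinc finger gene AT1G47655 a log2 fold change of -0.73 ± 0.14 (SE, edgeR adjusted p = 0.00111). The one member lower in pat1-1path1-4 was AT4G23500, with a log2 fold change of -0.51 ± 0.16 (SE, edgeR adjusted p = 0.0212), a call that ended without control replicate 2 and without pat1-1path1-4 replicate 2 or 3.

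Whether 2 mutations together moved a member by other than the sum of their single effects was tested by an interaction term, the double minus both singles plus the control. For pat1-1 with path1-4 the edgeR test called 0 members, as did DESeq2, where 0.0442% of all genes were called by edgeR. An unadjusted edgeR p below 0.05 was found for 31 of the 196 members tested and for 1271 of the 20346 genes tested. For pat1-1 with path2-1 the edgeR test called 18 members, 3 above the sum and 15 below it, where 14.7% of all genes were called. For path1-4 with path2-1 it called 13, of which 11 lay above the sum and 2 below, where 8.23% of all genes were called. The members' share called was 9.18% for pat1-1 with path2-1, below the background, as it was under each alternative run. For path1-4 with path2-1 it was 6.63%, but it lay above the background of its own fit with DESeq2 (10.8% against 9.97%), with no filter (6.09% against 4.87%) and without control replicate 1 (12.2% against 10.6%). FLC was below the sum of pat1-1 and path2-1, by -2.76 ± 0.52 on the log2 scale (SE, edgeR adjusted p = 0.00175). AT4G40020, a myosin heavy chain-related protein, was further below, by -3.55 ± 0.55 on the log2 scale (SE, edgeR adjusted p = 3.55e-04), holding 1.23, 2.33 and 1.79 CPM in pat1-1 and 0.1501, 0.119 and 0.348 in pat1-1path2-1. Above the sum of path1-4 and path2-1 lay scpl31, by 3.07 ± 0.58 on the log2 scale (SE, edgeR adjusted p = 0.00322), and AT3G19430, a protein related to late embryogenesis abundant proteins, by 2.91 ± 0.61 on the log2 scale (SE, edgeR adjusted p = 0.00656). Neither gene was called against the control in path1-4path2-1 itself, and scpl31 was called lower in path1-4. The interaction call of AT3G19430 ended, at an edgeR adjusted p of 0.0517, when only the compared genotypes were fitted. The count for pat1-1 with path2-1 was 10 without control replicate 2 and without pat1-1path2-1 replicate 1, and 11 without pat1-1 replicate 2. The count for path1-4 with path2-1 ran from 4, without path1-4 replicate 2, to 24, without control replicate 1. It was 5 to 8 without control replicate 2 or 3, path1-4 replicate 3, path2-1 replicate 1 or 3, or path1-4path2-1 replicate 2 or 3.

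Members lay next to each other on the chromosome in 11 runs that held 23 of them. Such runs were not counted over all genes with at least 1 CPM in the triple mutant, so these numbers are a description. The runs include FLC and AT5G01675, which overlap and whose reads cannot be told apart. The only run of 3 was CSLB03, CSLB04 and AT2G32550 on chromosome 2, between 13809019 and 13822861, all on the plus strand. CSLB04, another cellulose synthase-like gene, held 48.5, 57.4 and 58.9 CPM in the triple libraries against 30.1, 31.3 and 24.1 in the control. AT2G32550, of the Rcd1-like family related to a subunit of the CCR4-NOT deadenylase, held 7.21, 9.76 and 9.33 against 0.638, 0.915 and 1.21. Beside the pairs already named, WRKY49 lay next to GDPD3, a phosphodiesterase gene at 1.12, 1.10 and 0.804 CPM, and AT3G21080 next to ABCG15, an ABC transporter gene at 4.80, 4.83 and 4.33 CPM. AT3G42100 lay next to AT3G42110, with path1-4 as the next genotype of both. Some of these pairs are tandem copies that may share reads, so neighbours are not independent members. Chromosome 1 held 63 members (32.0%) where it held 26.5% of genes at that level. Within 1000000 bases of PATH2 lay 8 members, 4.06% against 1.85%, and of PAT1 and PATH1 3 each, 1.52% against 1.99% and 1.79%.

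The members were shorter than other expressed genes. Their median exon length was 1387 bases, with quartiles of 952 and 1859, against 1817, 1317 and 2450 over the 17703 genes with coordinates and at least 1 CPM in the triple mutant. They had a median of 3 exon pieces against 5, and 23.9% had a single one against 14.9%. Median GC content of their exons was 40.1% against 41.2%. When the trend of y over exon length and GC was taken out of each library, an alternative chosen after seeing the data, the rule found 180 genes, 176 of them among the 197. In windows from 250 bases before to 50 after the start, the site II element TGGGCC, which is common in promoters of genes for growth and protein synthesis, occurred in 11 members or 5.58%. It occurred in 19.8% of genes at that level and in 13.1% of all 37049 promoters. No gene annotated as a ribosomal protein was a member, of 325 at that level, where 1.11% of all genes at that level were members. The same held for 149 F-box genes and 108 NBS-LRR receptor genes. A TATA box occurred in 59.9% of members and 50.7% of genes at that level. The W-box core (TTGACC or TTGACT), bound by WRKY factors, occurred in 34.5% against 32.4%, the evening element in 3.55% against 5.95% and the telo-box AAACCCTA in 3.05% against 5.54%. A match is a description of the letters and not a site in use.

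**Figure D5:**
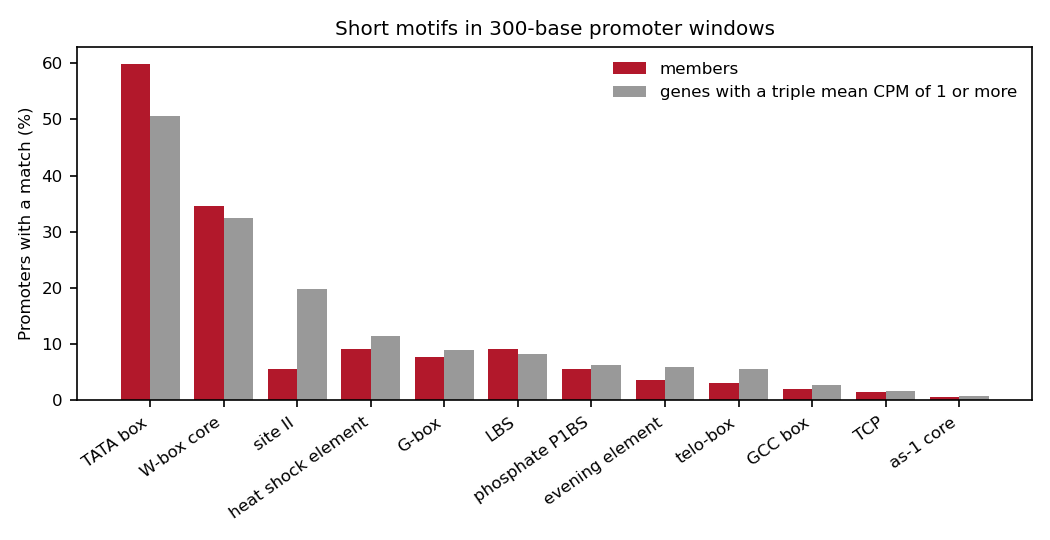
Share of promoter windows with at least 1 match to each of 12 motifs (x axis), in percent (y axis), for the 197 members (red) and for genes with a triple mean of at least 1 CPM (grey). The widest gap is at site II, with 5.58% of members against 19.8%.

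The members just inside the threshold, among those with at least 5 CPM, were AT3G62950, AT5G24205 and CSLB03, with an excess of 0.72, 0.72 and 0.73. AT3G62950, of the thioredoxin superfamily, averaged 49.9 CPM in the triple mutant and 30.6 in pat1-1. Just outside lay THA1, a threonine aldolase, AT3G51540 and AT3G55060, each with an excess below 0.7 that rounds to 0.70. THA1 averaged 7.12 CPM in the triple mutant and 4.18 in pat1-1. The line between members and other genes is therefore a setting of the rule and not a gap in the data. At a minimum excess of 0.5 it gave 424 genes and at 1 it gave 75. Of the 197 members, 119 met the rule whichever of the 24 libraries was left out.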

How the data were processed

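Per the labels' protocols, 1 µg of RNA from above-ground tissue went into each library and BGISEQ-500 was the sequencer. STAR 2.5.1b and the TAIR10 build stand in the submitters' processing notes. No source used here names the counter, the annotation or whether strand was used. The authors deposited whole-number counts per gene and TPM made from them. In 19432 of 19432 genes compared, TPM over count was constant within 0.1% after library scaling. Levels of single genes are CPM from the deposited counts with the library total (all genes) as denominator, and TPM served only to order genes by abundance.

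Counts were tested with edgeR 4.0.16 in R 4.3.3 (filterByExpr, TMM, 1 term per genotype, all 24 libraries, quasi-likelihood F test, two-sided, Benjamini-Hochberg over 20346 genes). The SE is the log2 fold change over the square root of F. The biological coefficient of variation (square root of the common dispersion) was 10.9%. The edgeR step was tested on simulated data. Alternatives were DESeq2 1.42.0, RLE factors, other filters, fits of fewer genotypes, other rule settings and leaving out each library. Of 37336 identifiers 37051 matched RefSeq TAIR10.1, the source of positions, symbols and promoter sequence. The members, gene lists, motifs and tests were chosen with earlier results of these data known. Named members follow a rule: the largest excess, the highest TPM, up to 4 per gene class, those at the threshold, up to 4 calls per comparison and direction, neighbours, the smallest and largest spread and the largest ratios. It gave 97 members, not all printed. Others named were chosen after their values were seen.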

Additional observations from a re-analysis of the deposited data

Results flagged for a closer look

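In 13 cases an interaction term was called for a member among those named, so the effect of a mutation differed between 2 backgrounds. Values are departures from the sum of the single effects on the log2 scale, with SE and edgeR adjusted p. For pat1-1 with path2-1, AT3G19430, related to late embryogenesis abundant proteins, lay above the sum by 1.66 ± 0.49 on the log2 scale (SE, edgeR adjusted p = 0.0280). AT5G55570, an unknown protein, did so by 0.91 ± 0.27 on the log2 scale (SE, edgeR adjusted p = 0.0286), and AT4G23500 by 0.74 ± 0.23 on the log2 scale (SE, edgeR adjusted p = 0.0337). Below the sum lay AT4G40020 with -3.55 ± 0.55 on the log2 scale (SE, edgeR adjusted p = 3.55e-04), and the TRAF-like gene AT5G26280 with -1.69 ± 0.30 on the log2 scale (SE, edgeR adjusted p = 0.00105). FLC had -2.76 ± 0.52 on the log2 scale (SE, edgeR adjusted p = 0.00175), and AT1G65500 -1.45 ± 0.28 on the log2 scale (SE, edgeR adjusted p = 0.00190).

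For path1-4 with path2-1, scpl31 lay above the sum by 3.07 ± 0.58 on the log2 scale (SE, edgeR adjusted p = 0.00322), and AT3G19430 by 2.91 ± 0.61 on the log2 scale (SE, edgeR adjusted p = 0.00656). The pseudogene AT1G54660 did so by 3.89 ± 0.91 on the log2 scale (SE, edgeR adjusted p = 0.0126), and AT5G55570 by 1.11 ± 0.28 on the log2 scale (SE, edgeR adjusted p = 0.0194). Of these genes, scpl31, AT3G19430 and AT1G54660 were not called against the control in path1-4path2-1 itself. Below the sum lay AT2G38640, of unknown function, with -0.49 ± 0.14 on the log2 scale (SE, edgeR adjusted p = 0.0339), and AT1G47655 with -0.67 ± 0.20 on the log2 scale (SE, edgeR adjusted p = 0.0425). Of these 13 calls, those of AT4G40020, AT5G26280, FLC, AT1G65500 and scpl31 held under every alternative run.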

How the results depend on the processing

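The number of members, 197, was 424 at a minimum excess of 0.5, 75 at 1 and 117 at a minimum of 5 CPM, and ran from 157 (offset of 1) to 248 (offset of 0.1) in other settings. Leaving out 1 library gave 186 to 237. The 177 members without overlap became 109 at 5 CPM, and 169 to 226 when 1 library was left out. The 2 calls in path1-4 became 7 with DESeq2, 4 without a filter, 1 with the filter computed without the triple libraries, 0 without those libraries in the fit, 0 with only the compared genotypes, and 1 to 7 when 1 library was left out. The 1 call in path2-1 became 5 with DESeq2, 0 in those same 2 fits, and 0 to 2 when 1 library was left out. For path1-4 with path2-1 the 13 calls became 20 with DESeq2, 3 with only the compared genotypes and 4 to 24 with 1 library left out. For pat1-1 with path2-1 the 18 calls became 10 to 26 with 1 library left out. Split by direction, the 12 higher in path1-4path2-1 became 6 with only the compared genotypes and 21 without control replicate 1, and the 19 lower 12 without path1-4path2-1 replicate 1. The 11 lower in pat1-1path2-1 became 4 to 10 with 1 library left out, and the 1 lower in pat1-1path1-4 became 0 to 2. For pat1-1 with path2-1 the 3 above and 15 below the sum became 5 and 19 with DESeq2, and 0 to 4 and 9 to 23 with 1 library left out. For path1-4 with path2-1 the 2 below became 4 with DESeq2 and 0 to 10 with 1 library left out. The total calls per comparison not named here stayed within 1.5 times. The filter and fit without triple libraries, and the length and GC trend, were chosen after seeing the data. Of 41 named calls, 27 held in every setting run, 13 were lost in some, 1 (AT3G42100 in path1-4) was not tested in 3 settings, and 0 changed sign. The cause of these changes was not tested. Low levels limit the rest: 80 members had under 5 CPM in the triple mutant. No paired analysis was possible because replicate numbers run on from genotype to genotype and are shared by none.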
